A study of Mus musculus with 6 samples.

Results

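The 9 genes described here are long non-coding hosts of small nucleolar RNAs (snoRNAs): Gas5, Snhg1, Snhg5, Snhg6, Snhg8, Snhg11, Snhg12, Snhg20 and Zfas1. They were chosen by symbol as known substrates of nonsense-mediated decay, and they are 9 of the 54232 genes in the count table. RNA was sequenced from whole testes of B6D2F1 mice at postnatal day 4, in 3 libraries labelled Dis3l2 WT and 3 labelled Dis3l2 cKO, a conditional knockout. The labels give neither the deleted part of Dis3l2 nor the Cre driver, and they do not say whether the 3 libraries of a group came from separate animals. The p-values therefore measure the spread between these libraries, part of which may be technical.

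A snoRNA host gene is transcribed and spliced like a messenger RNA precursor, and its snoRNAs are trimmed out of the removed introns. Box C/D snoRNAs guide the methylation of ribosomal RNA and box H/ACA snoRNAs guide its pseudouridylation, while scaRNAs are related guides that act in Cajal bodies. The spliced host RNA carries only short reading frames, stops translation well before its last exon junction, and is a textbook target of nonsense-mediated decay. DIS3L2, an exoribonuclease that degrades RNAs with an oligouridine tail, has been described as taking part in the breakdown of such targets, so the comparison asks whether host RNAs are higher where Dis3l2 is deleted.

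The reading frames and the start sites of the members show how these transcripts are built. In the GENCODE M21 annotation the members had 82 spliced transcripts, with up to 12 exons in Gas5. In 71 of them (86.6%) the frame opened by the first ATG stopped at least 50 bases before the last exon junction. The same held for 10396 of 14357 spliced transcripts of other long non-coding genes (72.4%), so the layout is common among such genes. First frames ran from 1 codon in Snhg8 to 54 codons in Snhg12. Spliced here means having an exon junction, and many of the members' transcripts are annotated as retaining an intron, 20 of 25 in Gas5 and 14 of 18 in Snhg1. The pooled share therefore does not describe the fully spliced host RNA alone. By gene it also varied, with the early stop in 24 of 25 transcripts of Gas5 and in 3 of 6 of Snhg20.

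Host genes are also known for starting with a 5′ terminal oligopyrimidine tract, the mark of genes whose translation follows growth signals. RefSeq start sites (build GRCm38.p6) were found for 8 members, with 2 starts for Gas5. The motif searched was a C followed by at least 4 bases that are each C or T, on the transcribed strand, opening between 5 bases before and the 10th base of the start. It was found at 4 of the 9 starts (44.4%) and at 7624 of 32851 RefSeq starts in all (23.2%). Among other snoRNA hosts it was at 6 of 11 starts of non-coding genes (54.5%) and at 7 of 18 of protein-coding genes (38.9%). The 4 starts with the tract are shown, so that its letters and place can be compared, with 20 bases before and 30 from the start on, the tract in capitals.
Gas5, chr1:161035146-161035195, plus strand: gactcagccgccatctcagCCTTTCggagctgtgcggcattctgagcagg
Snhg8, chr3:123508307-123508356, minus strand: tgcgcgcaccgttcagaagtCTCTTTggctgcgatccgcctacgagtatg
Snhg12, chr4:132308658-132308707, plus strand: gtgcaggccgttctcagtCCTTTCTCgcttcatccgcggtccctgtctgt
Snhg5, chr9:88522868-88522917, minus strand: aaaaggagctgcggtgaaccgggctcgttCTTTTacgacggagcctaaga
In Snhg8 the tract opened at the start base itself, in Gas5 1 base and in Snhg12 2 bases before it, and in Snhg5 at the 10th base. The motif was not in this window at the upstream Gas5 start or at those of Snhg1, Snhg11, Snhg20 and Zfas1.

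The members held 33 annotated snoRNA or scaRNA gene models on their own strand, from 1 in Snhg6, Snhg8 and Snhg20 to 8 in Snhg1 and 10 in Gas5. Snord80 in Gas5 and Snora16a in Snhg12 are each annotated by 2 overlapping models, so models outnumber distinct RNAs. Of the 33 models, 31 lay wholly inside exons that were counted for their host, and all 31 had 0 counts in every library. Reads over more than 1 gene were not counted, so these counts say nothing about the snoRNAs. The other 2 lay outside the counted exons. They were Snord87 in Snhg6, with 5, 4 and 9 counts in WT and 4, 3 and 5 in cKO, and Gm25129 in Snhg11, with 2 counts in WT replicate 3 and 0 elsewhere. Neither passed the filter on low counts, so 0 hosted snoRNAs could be tested.

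The next sequences show both kinds of guide and the only hosted model with counts in all libraries, read from the GENCODE M21 transcripts (GRCm38). Capitals mark the C box core TGATGA and the D box CTGA, or the ACA box near the 3′ end.
Snord87 of Snhg6, chr1:9942463-9942549, minus strand: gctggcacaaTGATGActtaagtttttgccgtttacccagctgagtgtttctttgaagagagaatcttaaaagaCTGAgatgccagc
Snord47 of Gas5, chr1:161038082-161038158, plus strand: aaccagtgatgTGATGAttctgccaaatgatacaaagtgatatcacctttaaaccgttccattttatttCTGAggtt
Snora24 of Snhg8, chr3:123507937-123508066, minus strand: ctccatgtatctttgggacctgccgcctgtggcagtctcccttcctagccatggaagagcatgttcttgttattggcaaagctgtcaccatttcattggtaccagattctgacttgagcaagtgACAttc

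**Figure D1:**
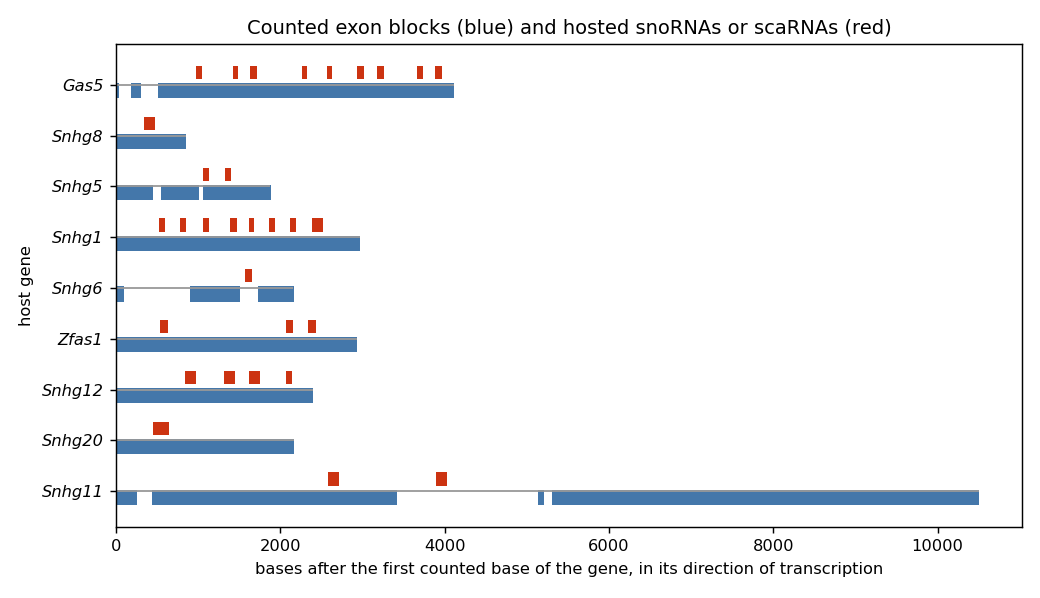
Gene models of the 9 hosts, with exon blocks as counted in blue and hosted snoRNAs or scaRNAs in red, along the bases from the first counted base. Only Snord87 in Snhg6 and the second model in Snhg11 lie off the blue blocks, and the other 31 lie over them.

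The counted exons covered the whole span of Snhg1, Snhg8, Snhg12, Snhg20 and Zfas1, 91.3% of Gas5, 92.0% of Snhg5, 81.1% of Snhg11 and 53.1% of Snhg6. A host count can therefore include reads from introns that had not been removed, other than those over a snoRNA.

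Some facts of the libraries bear on what follows. Totals ran from 35750784 to 43265614 counts in WT and from 26126694 to 35390560 in cKO. The library cKO replicate 1 stood apart: it was the smallest, it had 0.241% of its counts in gene models inside introns or awaiting experimental support, against 0.160% to 0.177% in the other 5, and without it the number of genes past the threshold went from 1681 to 3375. Dis3l2 itself had 32.0 ± 0.93 CPM (counts scaled to library size, with TMM factors) in WT, and 31.7 ± 1.65 CPM (SD, n = 3) in cKO. Counted over all exons, it does not check the genotype. Germ cell markers were lower in cKO (8 of 8 past the threshold). Their summed level was 1102 to 1176 CPM in WT and 597 to 632 in cKO, and in whole testes fewer cells of a type and less RNA per cell cannot be told apart. The tissue's defining markers, among them Ddx4 of germ cells, Sox9 of Sertoli cells and Star of Leydig cells, were measured in all libraries.

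All 9 host genes were measured and passed the filter on low counts. Per kilobase of counted exons Gas5 had the highest level in WT, 26.1 ± 0.85 CPM per kb (SD, n = 3). Snhg8 (14.9 ± 1.63), Snhg5 (14.6 ± 0.94) and Snhg1 (14.0 ± 0.31) followed on the same scale, and each differed from the next in the order by less than the larger SD. Snhg6 had 5.48 ± 0.73 CPM per kb, Zfas1 4.57 ± 0.14 and Snhg12 4.46 ± 0.18, the latter pair again within their spread. Snhg20 (0.999 ± 0.16) and Snhg11 (0.176 ± 0.010) were the lowest. The sum over the 9 members was 214.6, 214.4 and 206.9 CPM in the WT replicates, against 279.3, 251.6 and 224.9 CPM in the cKO replicates.

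Host gene RNAs lay slightly higher in the cKO testes, and 1 of the 9, Gas5, passed the test. In the edgeR quasi-likelihood test with Benjamini-Hochberg adjustment over all genes, a gene was called at an adjusted p under 0.05. Of all 20153 genes tested, 8.34% were called, 3.4% as higher and 4.94% as lower in cKO, so 1 call among 9 members is close to the background. All 9 fitted log2 fold changes of cKO over WT were above 0, against 51.7% of all genes. Their median was 0.21, beside 0.01 for all genes. In 5 members the 3 cKO libraries lay above the 3 WT libraries, which 13.6% of all genes did, and in 0 members below, which 14.6% did. The members share libraries, so these counts are no test.

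Markers of somatic cells of the testis were also higher in cKO in part. In edgeR 2 of 8 Sertoli cell markers rose (Cst12 by 0.31 and Clu by 0.28 on the log2 scale), and 8 of 8 had fitted values above 0 (median 0.24). Their summed level was 3555 to 3652 CPM in WT and 3762 to 4590 in cKO. Of 6 Leydig cell markers 3 rose (Lhcgr 0.70, Cyp17a1 0.60), while 5 lay above 0 and 1 below (median 0.22). Their sums were 428 to 440 CPM and 476 to 526 CPM. Of 5 macrophage markers 3 rose (Ptprc 0.71, Mrc1 0.35), all 5 lay above 0 (median 0.36), and the sums were 59.6 to 64.4 CPM and 78.6 to 84.3 CPM. Of 5 endothelial markers 1 rose (Pecam1 0.38), while 3 lay above 0 and 2 below (median 0.14). Their sums were 492 to 503 CPM and 522 to 570 CPM. These 4 lists had 0 lower calls. Of 5 peritubular markers 0 passed in the main edgeR fit, DESeq2 or limma-voom. In edgeR 2 had an unadjusted p under 0.05, Des at a log2 fold change of 0.22 and Tagln at -0.35. The edgeR adjusted p of Tagln reached 3.64e-05 among the other settings and 2.34e-07 with single libraries left out. Of 3 red blood cell markers tested 0 passed in the main edgeR fit, DESeq2 or limma-voom (0 had an unadjusted edgeR p under 0.05). Without cKO replicate 1, 7 Sertoli markers rose, endothelial markers had 2 higher calls and 1 lower, and 3 peritubular markers fell. Over all genes, the fit without that library called 16.4%, with 8.09% as higher. In cKO replicates 1, 2 and 3 the sums were 3762, 4484 and 4590 CPM for Sertoli markers and 476, 519 and 526 for Leydig markers. They were 522, 544 and 570 CPM for endothelial markers and 84.3, 78.6 and 79.0 for macrophage markers. For peritubular markers they were 1875, 1400 and 1419 CPM, where WT had 1505 to 1564. For red blood cell markers they were 37.4, 30.1 and 27.2 CPM, where WT had 25.1 to 46.4. The host gene sums in the same order were 279.3, 251.6 and 224.9 CPM. The part of these cells in the host gene values was not tested.

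Gas5, growth arrest specific 5, is known for accumulating in cells that stop growing, and carries box C/D snoRNAs in its introns (ENSMUSG00000053332, chromosome 1, 161034422 to 161038539, GRCm38, plus strand). It had 98.7, 101 and 94.96 CPM in the WT replicates, against 139, 116 and 107 CPM in the cKO replicates. All cKO libraries lay above all WT libraries, and cKO replicate 1 was the highest by a clear margin. The log2 fold change was 0.29 (SE 0.08, 1.22-fold, edgeR adjusted p = 0.0497), which is just inside the threshold. The call was lost with DESeq2 size factors (edgeR adjusted p = 0.0516), with at least 1 CPM in 3 samples (0.0507), with library size alone (0.0714), and when WT replicate 1, 2 or 3 (0.155, 0.140 and 0.178) or cKO replicate 2 (0.107) was left out. Without cKO replicate 1 it was kept at a smaller log2 fold change of 0.18 (edgeR adjusted p = 0.0314). DESeq2 (adjusted p = 0.0102) and limma-voom (0.0498) called Gas5 as their only member too, where they called 13.2% and 8.93% of the genes they gave a value, 5.61% and 3.71% as higher. Over all alternatives the adjusted p ran from 0.00296 to 0.178.

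Snhg12 hosts Snora16a, Snora44, Snora61 and Snord99 (ENSMUSG00000086290, chromosome 4, 132308623 to 132311024, plus strand). Its levels were 10.2, 10.9 and 11.02 CPM in the WT replicates, against 15.3, 14.6 and 11.2 CPM in the cKO replicates. The groups did not overlap, though cKO replicate 3 lay next to the WT values. The log2 fold change of 0.35 (SE 0.12, edgeR adjusted p = 0.108) did not pass. It passed without cKO replicate 3, at 0.48 (edgeR adjusted p = 0.0212), a fit that called 7.02% of all genes, 2.63% as higher.

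Snhg6, the host of Snord87 (ENSMUSG00000098234, chromosome 1, 9941959 to 9944118, minus strand), had 5.95, 5.66 and 7.22 CPM in the WT replicates, against 8.30, 7.51 and 7.74 CPM in the cKO replicates. The groups did not overlap, and WT replicate 3 came nearest to cKO. Its log2 fold change was 0.32 (SE 0.13, edgeR adjusted p = 0.159), which did not pass. Zfas1 hosts Snord12 and 2 more snoRNA models and starts 81 bases from the oppositely transcribed Znfx1 (ENSMUSG00000074578, chromosome 2, 167062934 to 167065862, plus strand). It had 13.6, 12.9 and 13.7 CPM in the WT replicates, against 15.7, 15.5 and 15.3 CPM in the cKO replicates. The 3 cKO values were the closest together of any member, at an observed coefficient of variation of 1.14%, and lay above all WT values. The log2 fold change of 0.21 (SE 0.09, edgeR adjusted p = 0.171) did not pass.

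Snhg1, which carries 8 snoRNA models (ENSMUSG00000108414, chromosome 19, 8723475 to 8726443, plus strand), had 41.2, 42.6 and 40.9 CPM in the WT replicates, against 52.0, 50.2 and 40.0 CPM in the cKO replicates. In cKO, replicates 1 and 2 were higher than every WT library and replicate 3 was lower than every WT library. The log2 fold change was 0.19 (SE 0.09, edgeR adjusted p = 0.240), and without cKO replicate 3 it was 0.29 and passed (edgeR adjusted p = 0.0245). Snhg5, the host of Snord50a and Snord50b (ENSMUSG00000097195, chromosome 9, 88521050 to 88522929, minus strand), had 26.7, 25.6 and 23.5 CPM in the WT replicates, against 29.7, 28.6 and 26.4 CPM in the cKO replicates. The groups overlapped by the single pair of WT replicate 1 and cKO replicate 3. This gave a log2 fold change of 0.16 (SE 0.08, edgeR adjusted p = 0.273).

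Snhg8, the host of Snora24 (ENSMUSG00000104960, chromosome 3, 123507552 to 123508404, minus strand), had 14.3, 11.995 and 11.9 CPM in the WT replicates, against 14.1, 15.8 and 13.7 CPM in the cKO replicates. WT replicate 1 lay among the cKO libraries, so the groups overlapped. Its log2 fold change was 0.19 (SE 0.11, edgeR adjusted p = 0.333). It was the only member in which cKO replicate 2, not replicate 1, was the highest cKO library.

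The 2 members with the fewest reads were the least precise. Snhg11, best known from neural tissue and typed as protein-coding in the annotation (ENSMUSG00000044349, chromosome 2, 158375638 to 158386145, plus strand), had 56 to 67 counts per WT library and 59 to 69 per cKO library. That is 1.404, 1.54 and 1.56 CPM in the WT replicates, against 2.48, 1.72 and 1.98 CPM in the cKO replicates, with no overlap. Its log2 fold change of 0.45 was the largest of the 9 and had a wide 95% interval, from -0.06 to 0.96 (edgeR adjusted p = 0.282). Of 5 brain and neuron markers, edgeR, DESeq2 and limma-voom each called 0, and 1 had an unadjusted edgeR p under 0.05. Their summed level was 30.8 to 35.4 CPM in WT and 29.5 to 31.4 in cKO. Among them Snap25, a synaptic vesicle fusion gene, had 0.809, 1.06 and 0.669 CPM in the WT replicates, against 2.59, 1.37 and 1.20 CPM in the cKO replicates (log2 fold change 0.9996, edgeR adjusted p = 0.105), highest in cKO replicate 1 as Snhg11 was. Syt1, a synaptic vesicle calcium sensor gene at a higher level, had 11.4, 10.2 and 11.4 CPM in the WT replicates, against 11.7, 7.63 and 7.22 CPM in the cKO replicates (log2 fold change -0.32, edgeR adjusted p = 0.260). Of the 5 markers 3 had fitted values below 0 (median -0.07). Without cKO replicate 1, edgeR called 1 of these markers as lower (median 0.08), where it called 16.4% of all genes. The part of such cells in the Snhg11 values was not tested. Snhg20, the host of 1 scaRNA model (ENSMUSG00000086859, chromosome 11, 117076790 to 117078955 as counted, plus strand), had 2.52, 1.82 and 2.15 CPM in the WT replicates, against 3.01, 1.87 and 1.75 CPM in the cKO replicates. Of the cKO libraries, replicate 1 lay above and replicate 3 below all WT libraries, so the groups overlapped. The log2 fold change was 0.02 with a 95% interval from -0.53 to 0.57 (edgeR adjusted p = 0.979), and its sign turned under 4 alternatives, down to -0.26 without cKO replicate 1.

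**Figure D2:**
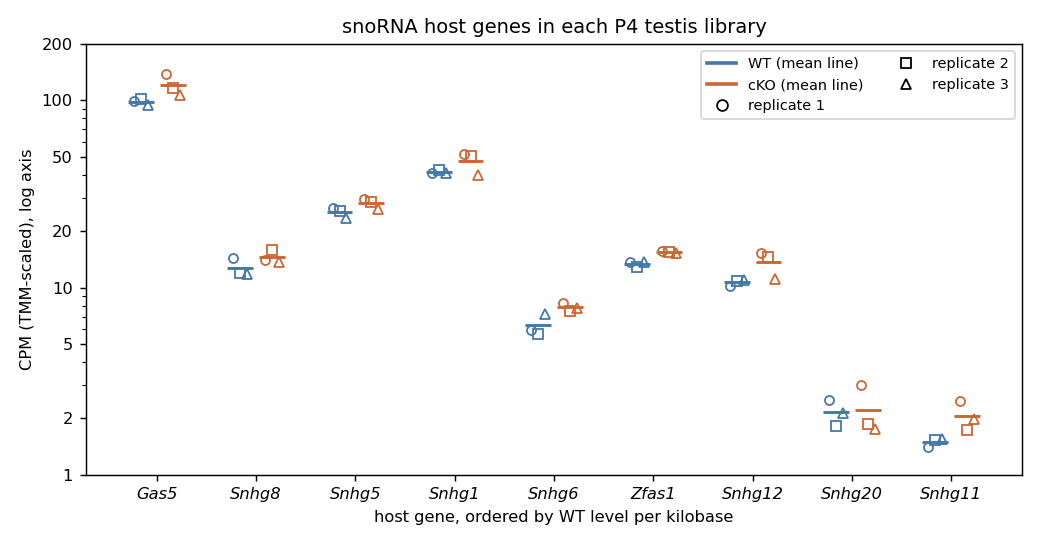
Levels of the 9 host genes in each library in CPM on a log axis, WT in blue and cKO in orange, with a line at each group mean and a symbol for each replicate number. Gas5 sits near 98 CPM in WT and between 107 and 139 CPM in cKO, while Snhg20 and Snhg11 sit near 2 CPM.

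The size of the shift differed between the cKO libraries. The median over the 9 members of log2 CPM minus the gene's WT mean was 0.41 in cKO replicate 1, 0.24 in replicate 2 and 0.11 in replicate 3, and 0.01, 0.02 and 0.00 in the WT libraries. Over all genes this median lay between 0.00 and 0.01 in each library. Of the cKO libraries, replicate 1 was highest in 8 of 9 members and replicate 3 lowest in 7. Replicates 1 and 2 each lay above all WT libraries in 8 members, replicate 3 in 5. The share of all genes with such an order was not computed, so these counts cannot be read as particular to the members.

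Library composition also differed between them. The share of counts from the mitochondrial genome was 2.58% to 2.86% in WT and 3.34%, 3.10% and 2.90% in cKO replicates 1, 2 and 3. Antisense gene models held 0.178% of the counts in cKO replicate 1 and 0.144% to 0.147% in the other 5 libraries. Long non-coding genes (lincRNA, antisense and processed transcript types) held 1.68% to 1.74% in WT. In cKO replicates 1, 2 and 3 they held 1.76%, 1.76% and 1.96%. The part of these shares in the host gene shift was not tested. Without cKO replicate 1 the members' median log2 fold change was 0.20, close to that of all libraries, with 8 of 9 above 0 and 1 member, Gas5, called. That fit called 16.4% of all genes, 8.09% as higher, so 1 of 9 is near the background there too.

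**Figure D3:**
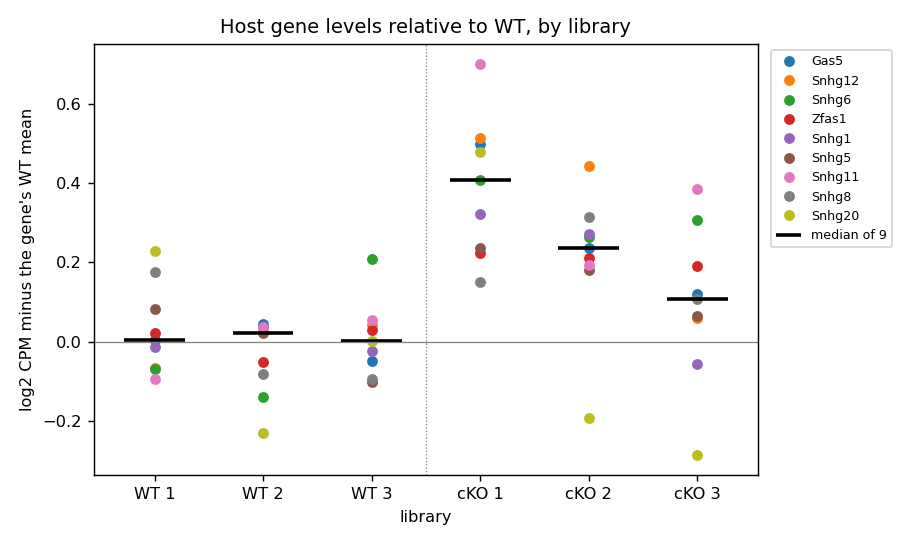
Each point is a member's log2 CPM minus its own WT mean in each library, with a bar at the median of the 9. The bars stand at 0.41, 0.24 and 0.11 in cKO replicates 1, 2 and 3 and close to 0 in the WT libraries.

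The spread between libraries was set against counting error for each member. In cKO the observed coefficient of variation of Gas5 was 13.6% where counting alone gives 1.63%, that of Snhg1 13.7% against 2.59% and that of Snhg12 16.2% against 4.82%. In WT the observed values for these genes were 3.25%, 2.20% and 4.07%, where counting alone gives 1.58%, 2.44% and 4.81%. For Snhg11 and Snhg20 the observed value was also larger in cKO (18.6% and 31.5%) than in WT (5.74% and 16.3%, where counting alone gives 12.8% and 10.7%). The other 4 went the other way: Snhg6 had 13.2% in WT and 5.19% in cKO, Snhg8 10.9% and 7.71%, Snhg5 6.46% and 5.97%, and Zfas1 3.13% and 1.14%. For Zfas1 both lay under the counting error of 4.30% and 4.51%. The Snhg6 value in cKO also lay under its counting error of 6.35%, as the WT values of Snhg1, Snhg12 and Snhg11 did under theirs. The difference in spread between the groups was not tested. For Snhg11 and Snhg20 counting alone gives 12.5% and 12.1% in cKO. The SE of their log2 fold changes was 0.23 and 0.25, beside a change of 0.29 in Gas5. Whether a change of that size was detectable at their depth was not tested.

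Other non-coding snoRNA hosts were set beside the members. Of 12 listed, 9 were matched by symbol and tested (3 were not analysed here). In edgeR 0 of the 9 passed, 0 had an unadjusted p under 0.05, and 0 passed in DESeq2 or limma-voom. Their median log2 fold change was 0.10, with 8 of 9 above 0. Epb41l4aos, the non-coding partner of Epb41l4a, had 2.52, 2.81 and 3.32 CPM in the WT replicates, against 4.42, 3.07 and 3.78 CPM in the cKO replicates (log2 fold change 0.38, edgeR adjusted p = 0.265). Snhg9, a short host gene, had 1.31, 1.20 and 1.34 CPM in the WT replicates, against 2.13, 1.403 and 1.72 CPM in the cKO replicates (log2 fold change 0.44, edgeR adjusted p = 0.334). In both, replicate 1 was the highest cKO library. Among 1796 other long non-coding genes tested, 36 were higher, 26 were lower, and the median was 0.09, with 58.4% above 0.

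**Figure D4:**
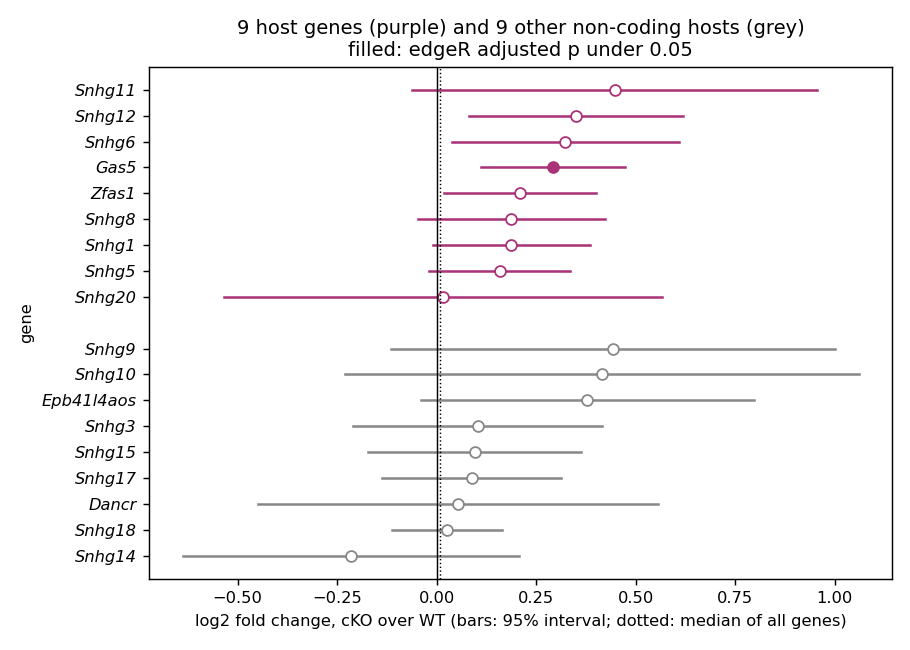
Log2 fold changes of cKO over WT with 95% intervals for the 9 members in purple and 9 other non-coding snoRNA hosts in grey, filled where edgeR's adjusted p was under 0.05, with a dotted line at the median of all genes. Gas5 is the only filled point, and all purple points lie above 0, the lowest being Snhg20 near 0.02.

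Most snoRNAs outside these hosts come from introns of protein-coding genes, many of them for ribosomal proteins and translation factors. Of 24 such hosts, 1 fell, 0 rose and 23 did not pass in edgeR, with a median log2 fold change of 0.02 and 13 above 0. DESeq2 also called 1 gene of the list as lower, limma-voom 1 higher and 1 lower, and edgeR without cKO replicate 1 called 2 in each direction. Over all genes, DESeq2 called 13.2%, limma-voom 8.93% and edgeR without cKO replicate 1 called 16.4%, where the main fit called 8.34%.

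Genes for proteins that bind snoRNAs or assemble them into particles included 6 that fell. Of 18 snoRNP assembly and core genes, 6 fell, 0 rose and 12 did not pass in edgeR, with a median of -0.12 and 16 below 0. Of all genes tested, 4.94% were called lower, and 9736 of 20153 had fitted values below 0. Fbl, the methyltransferase fibrillarin of box C/D particles, had 51.6, 48.9 and 48.5 CPM in the WT replicates, against 38.2, 43.3 and 40.4 CPM in the cKO replicates (log2 fold change -0.29, SE 0.07, edgeR adjusted p = 0.0222). Rpap3, part of the chaperone complex that assembles the particles, fell by 0.28 on the log2 scale (edgeR adjusted p = 0.0126), and the assembly factor gene Znhit3 fell by 0.45 (edgeR adjusted p = 0.0263). For each of these 3 genes every cKO value was under every WT value, which held for 14.6% of all genes. They were named for the lowest p among the calls of the list, so this separation adds no support. Leaving out WT replicate 1 or 2 ended each call, leaving out WT replicate 3 ended those of Fbl and Znhit3, and leaving out cKO replicate 2 ended that of Znhit3, with edgeR adjusted p from 0.0555 to 0.122. Without cKO replicate 1, 9 genes of the list were lower and 1 higher. Over all 20633 genes tested in that fit, 1705 were lower and 8.09% higher. Germ cell markers fell in the same libraries by a median of 0.88 on the log2 scale, and their part in these values was not tested.

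Genes of the decay pathway itself were looked up next. Of 22 nonsense-mediated decay factors 2 fell, 0 rose and 20 did not pass in edgeR, with a median of -0.08, and 18 of 22 had fitted values below 0. The share of all genes called lower was 4.94%. Ncbp2, a subunit of the nuclear cap-binding complex, had 80.9, 76.8 and 77.5 CPM in the WT replicates, against 59.9, 64.6 and 60.9 CPM in the cKO replicates (log2 fold change -0.34, SE 0.06, edgeR adjusted p = 0.0034). Etf1, the translation release factor, fell by 0.20 on the log2 scale (edgeR adjusted p = 0.0222), a call lost without any WT replicate or cKO replicate 2 (0.0612 to 0.114). DESeq2 called 5 genes of the list as lower, and edgeR with library size alone or without cKO replicate 1 also called 5. Over all genes, lower calls numbered 1226 of 16243 in DESeq2, 1200 with library size alone and 1705 of 20633 without cKO replicate 1. Of 20 protein-coding genes known for transcripts that this pathway degrades, 0 passed in edgeR, DESeq2 or limma-voom and 0 had an unadjusted p under 0.05. Their median was 0.03. The splicing factor gene Srsf2 had 183, 176 and 182 CPM in the WT replicates, against 196, 196 and 186 CPM in the cKO replicates (log2 fold change 0.10, edgeR adjusted p = 0.275). Upp1, a uridine phosphorylase gene, had 1.17, 2.19 and 1.67 CPM in the WT replicates, against 0.914, 1.32 and 0.946 CPM in the cKO replicates (log2 fold change -0.66, edgeR adjusted p = 0.220). Counts per gene do not separate a decay-sensitive isoform from the others.

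Protein-coding neighbours were looked up because several hosts share a start region with one. Within 5000 bases of 6 members lay 7 protein-coding genes that were tested, all on the opposite strand, and 0 were called in edgeR. Their median log2 fold change was 0.02. Zbtb37, which starts 427 bases from Gas5 and overlaps it, had a value of 0.04 (SE 0.07, edgeR adjusted p = 0.769), where Gas5 had 0.29. Znfx1, beside Zfas1, had -0.08 (SE 0.07, edgeR adjusted p = 0.538), and Slc3a2, an amino acid transporter subunit gene that starts 106 bases from Snhg1, had 0.12 (SE 0.05, edgeR adjusted p = 0.183). The difference between a host and its neighbour was not tested.

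The profile of the members over the 6 libraries was taken as their mean standardized log2 CPM. Among 10284 other genes averaging 10 CPM or more, the closest by Pearson's correlation over these 6 libraries were Smad4 (r = 0.997), Igf1 (0.997), Gnas (0.992), 1700052K11Rik (0.992) and Arhgap6 (0.990). With 6 points that share libraries and scaling, these values describe likeness only. Of the 5, Gnas, the stimulatory G protein gene (log2 fold change 0.31, edgeR adjusted p = 0.0126), and Arhgap6 (0.27, edgeR adjusted p = 0.0352) passed the test. Smad4, the shared mediator of TGF-beta family signals (0.09, edgeR adjusted p = 0.280), Igf1, a growth factor (0.18, edgeR adjusted p = 0.0707), and 1700052K11Rik (0.31, edgeR adjusted p = 0.0779) did not.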

How the data were processed

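The authors deposited unnormalized read counts for each gene, obtained with featureCounts 1.6.4 on GENCODE M18 gene models with strand-specific counting, per the file headers. The command in the header sets no option to count reads over several genes or places. The submitters' processing notes name cutadapt, HISAT2 and GRCm38.p5. Libraries were made from total RNA with random and poly(T) priming, strand selection and depletion of unwanted transcripts, per the labels' protocols, while the labels' molecule entry reads polyA RNA. Which of these applies is not settled, and it bears on intronic reads and snoRNA counts. Of 54232 genes, 54165 were named from GENCODE M21 (same build), and 0 count columns lacked a sample.

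Low genes were removed by filterByExpr (count at least 10, total at least 15), and the rest were scaled by TMM and compared with edgeR 4.0.16 (R 4.3.3), cKO against WT, with group as the only term. Intervals and SE come from the same fit, and log2 CPM used a prior count of 2. The procedure was tested on simulated data. Members, lists and tests were chosen with earlier results of these data known. Named were all members, up to 3 called genes (else the 2 lowest p) of each of 5 gene lists, 2 of each of 8 marker lists, 3 snoRNAs by count, Dis3l2, and the 5 closest profiles. The called gene among the protein-coding hosts is not reported here. A minimap2 2.31-r1302 alignment of member transcripts to all other transcripts found 0 members with a near-identical copy (95% identity over 30% of the length). Alternatives were other scalings, filters and tests (DESeq2 1.42.0, limma 3.58.1 voom, robust edgeR), a block for replicate number, gene classes left out, and each library left out. Neighbours and library shares were examined after the data were seen. Figures used matplotlib 3.10.9.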

Additional observations from a re-analysis of the deposited data

How the results depend on the processing

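With 3 libraries a group and small changes, 1 call at the threshold carries the count of members called. That count was 0 with DESeq2 size factors, with library size alone and with at least 1 CPM in 3 samples, and 0 to 3 with single libraries left out (3 without cKO replicate 3: Gas5, Snhg1 and Snhg12). It was 1, Gas5, in DESeq2, limma-voom, the robust fit, without a filter, without mitochondrial, haemoglobin, ribosomal and small RNA genes, and in the replicate block. Beside these counts, the main fit called 8.34% of all genes and the fit without cKO replicate 3 called 7.02%, 2.63% as higher. That omitted library was the lowest of the cKO libraries in 7 members. The members' median log2 fold change ran from 0.19 to 0.21 over the other settings and from 0.20 to 0.29 with single libraries left out. Over all genes, the other settings gave 1691 to 2137 calls. Leaving out single libraries gave 623 to 3375 (236 to 1670 higher, 387 to 1705 lower). The direction of Snhg20 turned with library size alone (-0.000401) and in limma-voom (-0.035), and ran from -0.26 to 0.16 with single libraries left out. Among other named genes, log2 fold changes with single libraries left out changed sign for Hbb-bs (-0.37 to 0.33), Hbb-bt (-0.12 to 0.22) and Dis3l2 (-0.058 to 0.013). The causes were not tested. The replicate numbers were not treated as pairing: same-numbered libraries had correlations of deviations of 0.03, 0.01 and 0.07, and the replicate block gave 1798 calls against 1681. With it Gas5 had an edgeR adjusted p of 0.0295.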
